A study of Mus musculus with 2 samples.

Results

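Beta protocadherins are the 22 genes named Pcdhb1 to Pcdhb22, and they were set against the 12 non-clustered protocadherins, named Pcdh followed by a number (Pcdh11x included). Both sets were found by gene symbol in the feature lists of the libraries, 34 of 32285 genes in all. The symbol rule uses no measured value, but it was chosen with earlier results of these data known. The data were 10x Genomics 3' single-cell RNA counts from dentate gyri of 5-day-old mouse pups, in 1 control library (wild type) and 1 Setdb1_cKO library (conditional knockout of Setdb1). Setdb1 encodes a methyltransferase that places H3K9 trimethylation, a mark of silent chromatin. Neither library carried a treatment beyond the genotype. Of the Cre driver, the deleted exons, the strain and the number of animals per library, the sources used here say nothing. The question, as the series title puts it, was how SETDB1 bears on keeping cell state and on cell fate in the dentate gyrus.

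Protocadherins are cadherin-like adhesion proteins of the cell surface. The clustered ones lie in alpha, beta and gamma arrays, and single neurons are known to use a few of the many promoters of these arrays, with a CTCF site at most promoters and CpG methylation at the unused ones. Different sets of isoforms give neurons different surface identities, and binding between equal sets underlies self-avoidance of dendrites and axons. Non-clustered protocadherins are separate genes with their own promoters and serve adhesion, migration and circuit formation.

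In the GENCODE annotation of GRCm38, the assembly also called mm10, the beta genes filled chromosome 18 from 37264938 to 37524479 on the plus strand. The longest coding transcript of each of the 22 was a single exon, with a median length of 3714 bases. The 12 non-clustered genes had 3 to 35 exons. Pcdh11x and Pcdh19 lie on chromosome X, and Pcdh1 and Pcdh12 lie on chromosome 18 outside the array. Within the last 500 bases, where 3' counts arise, only Pcdhb21 shared 90-base windows with another member. It overlaps Pcdhb22 on the same strand and shared 366 of its 411 windows. How this overlap bore on the UMIs counted for these 2 genes was not tested. Gm37446 lies on the opposite strand at Pcdhb12, and 7 non-clustered genes also have a gene on the opposite strand.

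Control and Setdb1_cKO files listed 14397 and 12060 barcodes, with 82393428 and 87845965 UMIs (unique molecular identifiers, each standing for 1 captured RNA). Filters left 10736 and 9360 cells, with medians of 5920 and 6977 UMIs. Xist had 16 UMIs in the control cells and 93968 in the Setdb1_cKO cells, and Ddx3y had 4143 and 0, so genotype and sex cannot be told apart. The libraries shared 39 barcodes among kept cells. Cells were put into classes by their marker genes, and a class was compared where both libraries had at least 50 cells. The 5 compared classes of the dentate lineage and its neighbours were radial glia (1884 control and 1481 Setdb1_cKO cells), astrocytes (1080 and 520), intermediate progenitors (890 and 455), neuroblasts (4775 and 4856) and pyramidal or mossy neurons (126 and 344). Granule neurons reached the gate in 9 control and 60 Setdb1_cKO cells and were not compared. Genes outside the gate lists served as a check on the names. In both libraries Slc1a2 and Aldoc ranked 1 of the compared classes in astrocytes, Insm1 in intermediate progenitors, Bcl11b in neuroblasts and Slc17a7 in pyramidal or mossy neurons. The other check genes ranked from 1 to 4: Sox2, Slc1a3 and Vim were 1 or 2 in radial glia, Mlc1 was 1 or 2 in astrocytes, Btg2 was 3 or 4 in intermediate progenitors, Tubb3 and Stmn2 were 2 and 3 in neuroblasts, and Slc17a6 was 4 or 3 in pyramidal or mossy neurons. The median pyramidal or mossy cell had 7 of 8 neuroblast markers detected beside 4 (control) or 3 (Setdb1_cKO) of its own 7, so this class rests on few markers.

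With 1 library per genotype, no difference between genotypes could be tested. Ratios below compare these libraries, and their 95% intervals cover counting error only. Setdb1 itself was lower in every compared class of neural origin other than oligodendrocyte progenitors. In radial glia it had 638 UMIs in control and 191 in Setdb1_cKO cells, a ratio of 0.325 after scaling to the class total. The ratio was 0.379 in astrocytes, 0.486 in intermediate progenitors, 0.499 in neuroblasts, 0.337 among pyramidal or mossy neurons and 0.363 among Cajal-Retzius cells. For oligodendrocyte progenitors it was 0.824 (0.580 to 1.16), in endothelial cells 1.21 (0.826 to 1.75) and in fibroblasts 1.06 (0.677 to 1.68). UMIs at the 3' end can come from a transcript that lacks the deleted part, so these ratios do not give the share of cells without the gene.

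As a family, the beta protocadherins were higher in neuroblasts and in pyramidal or mossy neurons of the Setdb1_cKO library, and lower in its radial glia and astrocytes. In neuroblasts their summed level was 124 CPM (counts scaled to the class total) in control and 200 CPM in Setdb1_cKO (3392 and 6887 UMIs), a ratio of 1.61 (1.54 to 1.68). In pyramidal or mossy neurons it was 103 CPM and 226 CPM (268 and 1728 UMIs), a ratio of 2.19 (1.93 to 2.5). In radial glia it was 41.4 CPM and 30.6 CPM (507 and 345 UMIs), a ratio of 0.739 (0.643 to 0.849). Astrocytes went the same way as radial glia, with 338 and 120 UMIs and a ratio of 0.623 (0.502 to 0.770). In intermediate progenitors the interval held 1, with 307 and 168 UMIs and a ratio of 0.924 (0.761 to 1.12). Cajal-Retzius cells, early neurons of the molecular layer, had a ratio of 0.762 (0.625 to 0.928). The sum over all kept cells, 1.75-fold higher (1.69 to 1.80), thus mixed classes of opposite direction.

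The non-clustered family followed another order. Its summed level in control neuroblasts was 173 CPM, against 318 CPM in Setdb1_cKO (4730 and 10965 UMIs), a ratio of 1.83 (1.77 to 1.90), which was above the beta ratio. In pyramidal or mossy neurons it was 531 CPM and 566 CPM, a ratio of 1.06 (1.0 to 1.13), below the beta ratio. In radial glia the ratio was 1.15 (1.11 to 1.2), and in astrocytes it was 0.916 (0.878 to 0.955). Intermediate progenitors had a ratio of 1.27 (1.13 to 1.42) and Cajal-Retzius cells one of 1.40 (1.26 to 1.55). With all members and cells, the intervals of the families did not overlap in any of these 6 classes. Without the X-linked members they overlapped in neuroblasts (non-clustered 1.69, 1.64 to 1.76) and in intermediate progenitors (1.21, 1.07 to 1.36), and with doublets kept they overlapped in neuroblasts (beta 1.61, 1.55 to 1.68, and non-clustered 1.68, 1.63 to 1.73). Kept doublets also gave overlap in intermediate progenitors (0.756 to 1.10, and 1.05 to 1.31). Thinned to 2000 UMIs, they overlapped in astrocytes (0.513 to 1.15, and 0.773 to 0.921) and in intermediate progenitors. Pyramidal or mossy neurons then also overlapped (1.387 to 3.34, and 0.913 to 1.389). Overlap also arose with a stricter cell filter (astrocytes, intermediate progenitors), a stricter gate (intermediate progenitors) and without Pcdhb17 and Pcdh17 (neuroblasts). Among neuroblasts with Bcl11b but no Calb2 UMI the order of the families was the other way. The beta ratio there was 1.90 (1.68 to 2.16) and the non-clustered ratio 1.53 (1.38 to 1.70), with overlapping intervals. Between the classes, depth per cell differed: the median was 5481 and 6501 UMIs in neuroblasts and 19203 and 21963 UMIs in pyramidal or mossy neurons. The part of depth and of sex in these ratios was not tested.

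**Figure D1:**
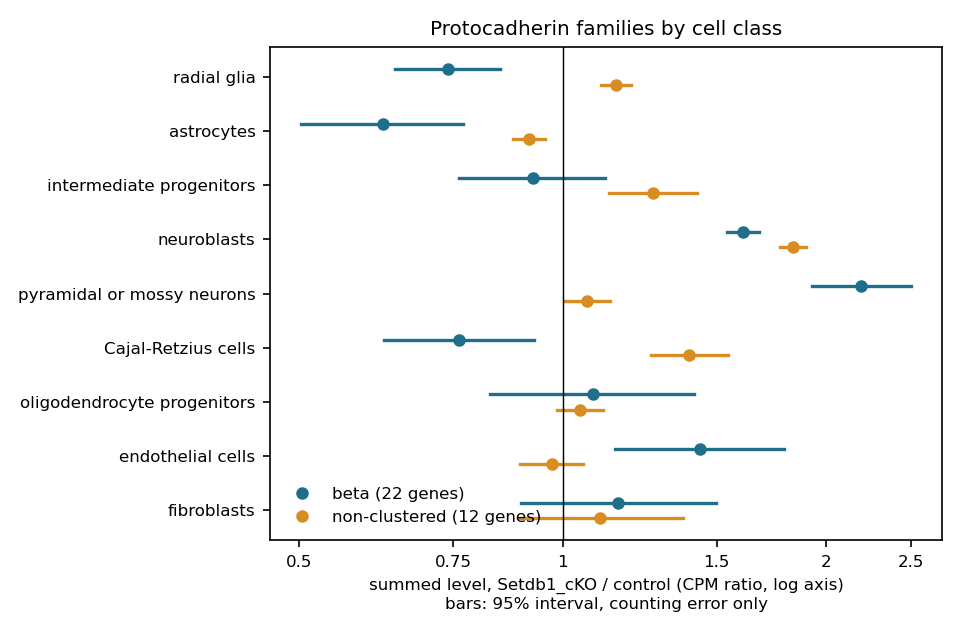
Ratio of the summed level (CPM, log axis) of each family, Setdb1_cKO to control, in 9 cell classes, with 95% intervals for counting error as bars. The beta points lie at 1.61 and 2.19 in neuroblasts and in pyramidal or mossy neurons and at 0.739 and 0.623 in radial glia and astrocytes, while the non-clustered point is highest in neuroblasts at 1.83.

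In classes whose Setdb1 interval held 1, the beta sum had ratios above 1, most with intervals that held 1. It was 1.08 (0.827 to 1.41) in oligodendrocyte progenitors, 1.16 (0.897 to 1.5) in fibroblasts and 1.44 (1.15 to 1.79) in endothelial cells. The endothelial ratio came from 205 and 138 UMIs. Haemoglobin genes, which mark red blood cells, took 6482 CPM of the control and 3543 CPM of the Setdb1_cKO endothelial cells, and their part in that ratio was not tested. Of 4 beta members with at least 30 UMIs in endothelial cells, 2 were at least 1.5-fold higher (Pcdhb7 and Pcdhb17) and 1 was at least 1.5-fold lower (Pcdhb20, with an interval that held 1), against 4.63% and 4.8% of all genes measured there. Fibroblasts had 1 measured member, which was higher, against 7.01% of genes higher and 5.57% lower there, and oligodendrocyte progenitors had 0 measured members, against 4.99% and 5.32%. The fibroblast member was Pcdhb17, with 13 and 23 UMIs and an interval that held 1 (0.755 to 3.34). Microglia, a class that should lack these genes, had 6 and 19 beta UMIs (5.87 CPM and 12.3 CPM), a ratio of 2.10 (0.807 to 6.43), beside a Setdb1 ratio of 0.712 (0.485 to 1.05). Border macrophages, with a Setdb1 ratio of 1.51 (0.751 to 3.07), had 1 and 5 beta UMIs, too few to read.

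Neuroblasts gave the deepest view of single beta genes. A member was measured where it had at least 30 UMIs over both libraries, and called where the ratio was at least 1.5-fold either way. Of 21 members measured, 12 were higher and 1 was lower in Setdb1_cKO, while 9.55% of all 14546 genes measured in neuroblasts were higher and 7.33% were lower by this rule. The median log2 ratio was 0.95 over the measured beta genes, -0.05 over all genes measured and 0.56 over the non-clustered genes. The remaining member, Pcdhb1, had 0 and 2 UMIs here and 3 UMIs over all kept cells, which is too few for a ratio.

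The largest ratios were those of Pcdhb2 and Pcdhb3, which are neighbours near the start of the array. Pcdhb2 had 62 UMIs in control and 334 in Setdb1_cKO neuroblasts, a ratio of 4.26 (3.24 to 5.69). Pcdhb3 had 38 and 200 UMIs, a ratio of 4.17 (2.93 to 6.06). Both were scarce in control, at 2.27 CPM and 1.39 CPM. Pcdhb20 had 171 and 612 UMIs (2.83-fold, 2.39 to 3.38), and Pcdhb5 had 131 and 459 UMIs (2.77-fold, 2.28 to 3.39). Pcdhb17 had 340 and 1059 UMIs (2.47-fold, 2.18 to 2.79) and was the member with most UMIs in Setdb1_cKO. Each of these members encodes a beta isoform with its own extracellular domains, and no separate function of any of them is described here. The other called members were Pcdhb6 (47 and 148 UMIs, 2.49-fold), Pcdhb18 (149 and 460, 2.44-fold), Pcdhb10 (30 and 86, 2.27-fold), Pcdhb22 (153 and 395, 2.04-fold), Pcdhb11 (88 and 217, 1.95-fold), Pcdhb12 (44 and 108, 1.94-fold) and Pcdhb21 (206 and 401, 1.54-fold). All 12 intervals lay above 1.

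A second set of members did not share the higher level. Pcdhb7, which had the most UMIs of the family in control neuroblasts, had 553 UMIs there and 525 in Setdb1_cKO, a ratio of 0.751 (0.666 to 0.848). Pcdhb9 had 255 and 249 UMIs, a ratio of 0.773 (0.646 to 0.924). The member called lower was Pcdhb15, with 40 and 25 UMIs and a ratio of 0.495 (0.288 to 0.836). Pcdhb8, Pcdhb13, Pcdhb14 and Pcdhb16 had ratios of 1.01, 0.95, 0.949 and 1.16, with intervals that held 1. Pcdhb4 (1.40, 1.13 to 1.76) and Pcdhb19 (1.34, 1.16 to 1.55) were higher by less than 1.5-fold.

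**Figure D2:**
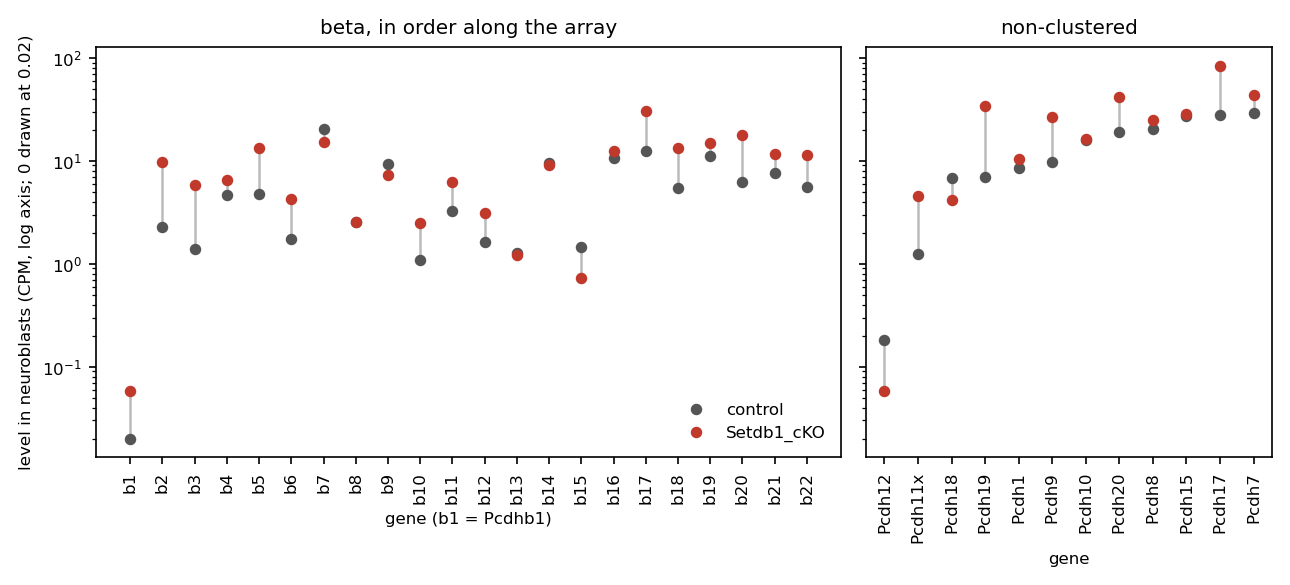
Level of each member in neuroblasts (CPM, log axis) in the control (grey) and Setdb1_cKO (red) library, beta genes in order along the array and non-clustered genes by control level. Pcdhb7, the member with most UMIs in control, sits lower in Setdb1_cKO, whereas Pcdhb17 lies at 12.4 and 30.7 CPM and Pcdhb2 at 2.27 and 9.68 CPM.

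Along the array, called members stood in runs. From Pcdhb2 to Pcdhb6 the ratios in neuroblasts were 4.26, 4.17, 1.40, 2.77 and 2.49. From Pcdhb7 to Pcdhb9 they were 0.751, 1.01 and 0.773, and from Pcdhb10 to Pcdhb12 they were 2.27, 1.95 and 1.94. From Pcdhb13 to Pcdhb16 no ratio reached 1.5, and from Pcdhb17 to Pcdhb22 all were above 1, between 1.34 and 2.83. The runs were read from the values and carry no test.

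Pyramidal or mossy neurons showed the same members in large part. Of 17 measured, 12 were higher and 0 were lower, against 6.47% and 10.7% of all genes measured in this class. The class holds 344 cells in Setdb1_cKO against 126 in control, so that a member could reach the minimum of 30 UMIs through that library alone. Pcdhb5 had 3 UMIs in control and 77 in Setdb1_cKO (8.73-fold, 2.88 to 43.3), and Pcdhb3 had 1 and 49 (16.7-fold, 2.85 to 672). Counts of 1 to 3 in control leave these ratios wide. Better supported were Pcdhb20 with 16 and 215 UMIs (4.57-fold, 2.75 to 8.14) and Pcdhb17 with 21 and 249 UMIs (4.03-fold, 2.58 to 6.63). Pcdhb2 (6 and 57 UMIs, 3.23-fold), Pcdhb18 (19 and 141, 2.52-fold), Pcdhb19 (21 and 155, 2.51-fold) and Pcdhb22 (23 and 128, 1.89-fold) followed, with intervals above 1. Pcdhb14 and Pcdhb16 again had intervals that held 1, at 0.966 and 0.935. Pcdhb7, which was lower in neuroblasts, had a ratio of 1.29 with an interval that held 1 (0.890 to 1.90). Pcdhb9 differed from neuroblasts, with 8 and 63 UMIs and a ratio of 2.68 (1.28 to 6.47). In this class the median ratio of genes well measured in both libraries was 0.16 below 0 on the log2 scale, and relative to that median the beta sum was 2.46-fold higher. With cells thinned to 2000 UMIs 0 members were called higher (8.24% of all genes), and with a minimum of 100 UMIs 5 were (4.56%). Both settings left fewer members to measure. Thinned cells held a mean of 0.206 (control) and 0.436 (Setdb1_cKO) beta UMIs, so few members, if any, could reach 30 UMIs.

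Radial glia, the stem cells of the lineage, had 13 measured beta members, of which 1 was higher and 5 were lower by 1.5-fold, against 7.03% and 6.68% of all genes measured. Pcdhb16 had 30 UMIs in control and 8 in Setdb1_cKO (0.290, 0.115 to 0.647). Pcdhb19 had 43 and 16 (0.404, 0.212 to 0.732), Pcdhb20 had 42 and 16 (0.414, 0.217 to 0.751) and Pcdhb21 had 24 and 9 (0.407, 0.167 to 0.907). Pcdhb7 had 76 and 41 (0.586, 0.391 to 0.867). Pcdhb22, the member counted as higher, had 25 and 36 UMIs with an interval that held 1 (0.913 to 2.72). Cells with a Top2a, Mki67 or Cdk1 UMI, markers of the cell cycle, were 32.6% of control and 21.1% of Setdb1_cKO radial glia, and without them the beta ratio was 0.684. With a stricter cell filter 3 members were called lower (5.67% of all genes). Just 1 was called with cells thinned to 2000 UMIs (8.22%) or with a minimum of 100 UMIs (4.86%). At that minimum Pcdhb7 was the only member measured, and thinning also left fewer members to measure.

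Astrocytes had 7 measured beta members, of which 0 were higher and 4 were lower, against 5.91% and 5.88% of all genes. Pcdhb14 had 32 and 6 UMIs (0.329, 0.113 to 0.798), Pcdhb19 had 29 and 6 (0.363, 0.123 to 0.890) and Pcdhb20 had 28 and 5 (0.314, 0.0945 to 0.822). Pcdhb7, with 33 and 12 UMIs, had an interval that held 1 (0.300 to 1.27). In intermediate progenitors, where control again had more cells (890 and 455), 6 were measured. Of these 1 was higher and 1 was lower, against 4.59% and 6.98% of all genes. The higher one was Pcdhb22 (20 and 19 UMIs), with an interval that held 1 (0.810 to 3.17). The lower one in intermediate progenitors was Pcdhb19 (38 and 8 UMIs, 0.355, 0.143 to 0.774). Among members under the minimum there, Pcdhb21 had 23 and 2 UMIs and Pcdhb16 had 21 and 1, while Pcdhb2 had 7 and 15. Cajal-Retzius cells had 7 measured members, 0 higher and 4 lower (Pcdhb7, Pcdhb9, Pcdhb19 and Pcdhb22), against 5.32% and 4.44%. Of these, Pcdhb22 had an interval that held 1 (0.243 to 1.15). The astrocyte count of lower members was 0 with a stricter cell filter (7.36% of all genes) or a stricter gate (6.66%). It was also 0 with cells thinned to 2000 UMIs (7.64%) or a minimum of 100 UMIs (3.6%). A minimum of 10 UMIs gave 9 (8.03%). No beta member had 100 UMIs in astrocytes, so at that minimum none could be called. Thinned astrocytes held a mean of 0.09 and 0.0698 beta UMIs per cell, which left few members, if any, to measure.

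Taking all 5 classes and no minimum of UMIs, 18 of the 22 beta members were at least 1.5-fold apart with an interval that left out 1 in at least 1 class, 14 of them higher somewhere, 7 lower somewhere and 3 both. Of the 23442 genes with a UMI in these classes, 24.4% met this rule, 12.5% higher, 13.3% lower and 1.37% both, many of them with few UMIs. The 3 members that did both were Pcdhb19, Pcdhb20 and Pcdhb21. Pcdhb20 was the clearest, at 0.314 in astrocytes, 0.414 in radial glia, 2.83 in neuroblasts and 4.57 in pyramidal or mossy neurons. The 4 members without such a class were Pcdhb1, Pcdhb4, Pcdhb8 and Pcdhb13. Among the 12 non-clustered members the numbers were 8 in any class, 6 higher, 3 lower and 1 both (Pcdh9).

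Outside neuroblasts the counts behind these members, control before Setdb1_cKO, were as follows, along the array. Pcdhb2 had 8 and 10 UMIs in radial glia, 4 and 4 in astrocytes, 7 and 15 in intermediate progenitors and 6 and 57 in pyramidal or mossy neurons. Pcdhb3 had 5 and 5 UMIs in radial glia, 9 and 1 in astrocytes, 5 and 3 in intermediate progenitors and 1 and 49 in pyramidal or mossy neurons. Both had few UMIs in glia of either library, and Pcdhb2 was also 3.62-fold higher in intermediate progenitors (1.39 to 10.5). Pcdhb5 had 17 and 13 UMIs in radial glia, 7 and 7 in astrocytes, 22 and 19 in intermediate progenitors and 3 and 77 in pyramidal or mossy neurons. Pcdhb6 had 15 and 16 UMIs in radial glia, 9 and 2 in astrocytes, 8 and 11 in intermediate progenitors and 2 and 29 in pyramidal or mossy neurons. Pcdhb7 had 76 and 41 UMIs in radial glia, 33 and 12 in astrocytes, 26 and 19 in intermediate progenitors and 37 and 140 in pyramidal or mossy neurons. Pcdhb7 was the best covered of the family in control radial glia and in control astrocytes. Pcdhb9 had 13 and 7 UMIs in radial glia, 15 and 7 in astrocytes, 14 and 3 in intermediate progenitors and 8 and 63 in pyramidal or mossy neurons. Pcdhb10 had 6 and 3 UMIs in radial glia, 6 and 1 in astrocytes, 3 and 0 in intermediate progenitors and 4 and 13 in pyramidal or mossy neurons. Pcdhb11 had 13 and 13 UMIs in radial glia, 7 and 7 in astrocytes, 8 and 6 in intermediate progenitors and 7 and 55 in pyramidal or mossy neurons. Of these, Pcdhb10 had at most 13 UMIs in any of the 4 classes. Pcdhb12 had 6 and 1 UMIs in radial glia, 3 and 2 in astrocytes, 3 and 1 in intermediate progenitors and 6 and 37 in pyramidal or mossy neurons. Pcdhb14 had 51 and 32 UMIs in radial glia, 32 and 6 in astrocytes, 26 and 15 in intermediate progenitors and 25 and 71 in pyramidal or mossy neurons. Pcdhb15 had 3 and 2 UMIs in radial glia, 4 and 1 in astrocytes, 3 and 0 in intermediate progenitors and 1 and 17 in pyramidal or mossy neurons. Pcdhb14 was lower in Setdb1_cKO astrocytes and level in neurons. Pcdhb16 had 30 and 8 UMIs in radial glia, 19 and 4 in astrocytes, 21 and 1 in intermediate progenitors and 24 and 66 in pyramidal or mossy neurons. Pcdhb17 had 49 and 30 UMIs in radial glia, 30 and 13 in astrocytes, 32 and 23 in intermediate progenitors and 21 and 249 in pyramidal or mossy neurons. Pcdhb18 had 42 and 53 UMIs in radial glia, 31 and 17 in astrocytes, 14 and 8 in intermediate progenitors and 19 and 141 in pyramidal or mossy neurons. Pcdhb16 and Pcdhb17, close neighbours in the array, thus went apart in pyramidal or mossy neurons, where the first was level. Pcdhb19 had 43 and 16 UMIs in radial glia, 29 and 6 in astrocytes, 38 and 8 in intermediate progenitors and 21 and 155 in pyramidal or mossy neurons. Pcdhb20 had 42 and 16 UMIs in radial glia, 28 and 5 in astrocytes, 18 and 7 in intermediate progenitors and 16 and 215 in pyramidal or mossy neurons. Both were lower in glia and higher in pyramidal or mossy neurons of the Setdb1_cKO library. Pcdhb21 had 24 and 9 UMIs in radial glia, 22 and 5 in astrocytes, 23 and 2 in intermediate progenitors and 18 and 76 in pyramidal or mossy neurons. Pcdhb22 had 25 and 36 UMIs in radial glia, 24 and 10 in astrocytes, 20 and 19 in intermediate progenitors and 23 and 128 in pyramidal or mossy neurons. These last 2 genes overlap, and yet Pcdhb21 was lower and Pcdhb22 was not in radial glia.

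**Figure D3:**
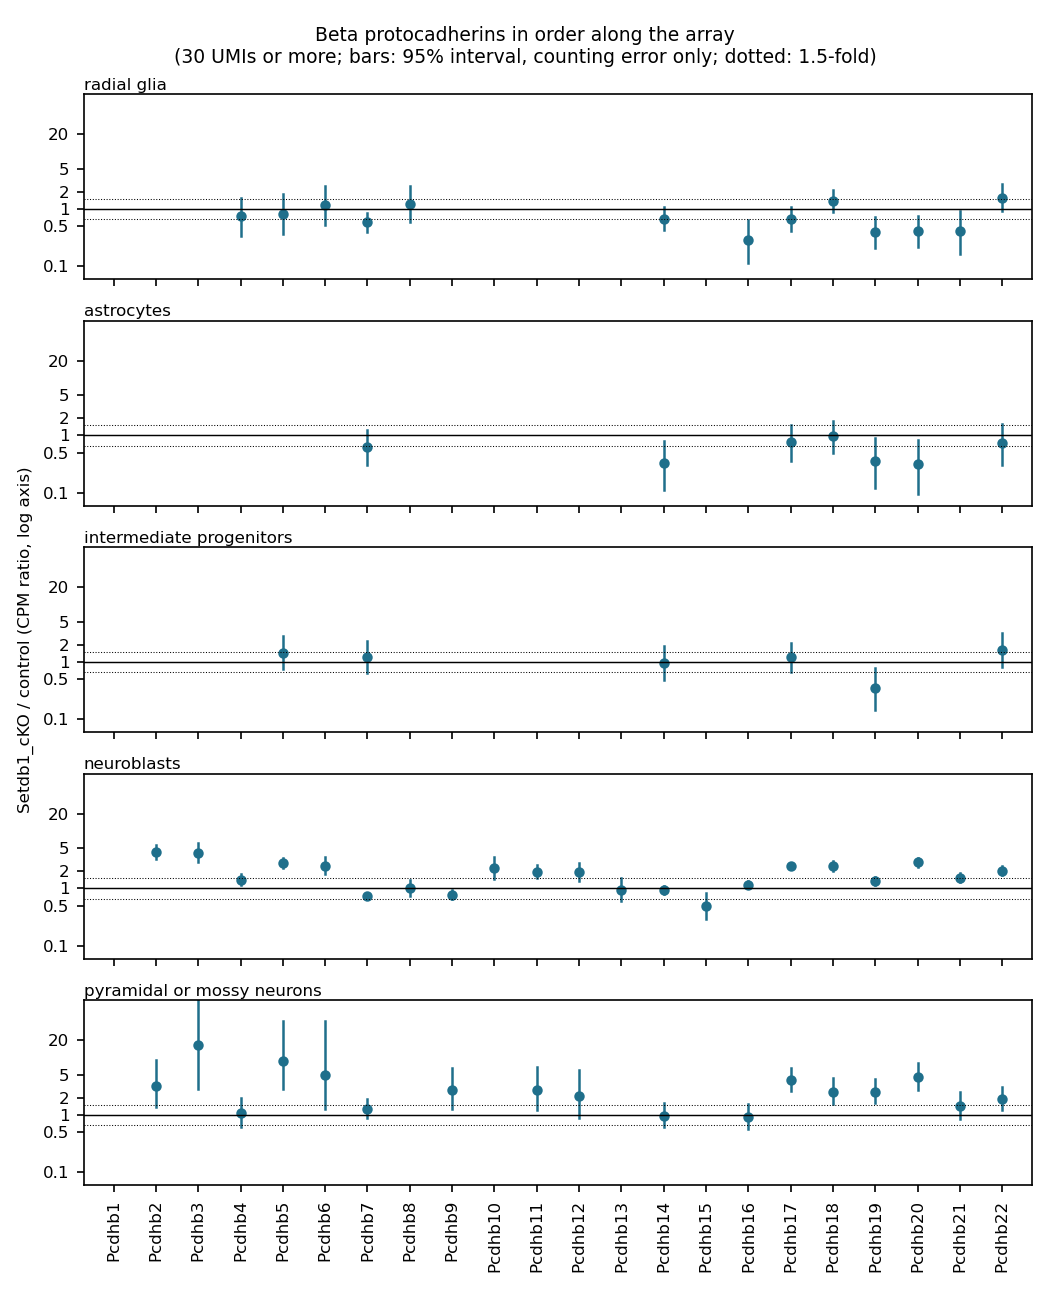
Ratio of each measured beta member (CPM, log axis), Setdb1_cKO to control, in order along the array, 1 panel per class, with 95% intervals for counting error as bars and dotted lines at 1.5-fold either way. Pcdhb2, Pcdhb5, Pcdhb17 and Pcdhb20 lie above the upper line in neuroblasts and in pyramidal or mossy neurons, while Pcdhb19 and Pcdhb20 lie below the lower line in radial glia and astrocytes.

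Of the 11 non-clustered members measured in neuroblasts, 5 were higher and 1 was lower, against the 9.55% and 7.33% of all genes given above. Pcdh19, an X-linked adhesion gene mutated in a form of epilepsy, had 191 UMIs in control and 1166 in Setdb1_cKO (4.83-fold, 4.14 to 5.66). Pcdh11x, the other X-linked member, had 34 and 158 UMIs (3.68-fold, 2.53 to 5.50). Pcdh17 had 762 and 2898 UMIs (3.01-fold, 2.78 to 3.26), Pcdh9 had 266 and 923 (2.75-fold, 2.39 to 3.16) and Pcdh20 had 521 and 1436 (2.18-fold, 1.97 to 2.42). Pcdh18 was the lower member, with 187 and 144 UMIs (0.610, 0.487 to 0.762). Pcdh10 (431 and 559 UMIs, 1.03-fold) and Pcdh15, also a part of the hair cell tip link (743 and 977, 1.04-fold), were level, and Pcdh12, an endothelial member, had 5 and 2 UMIs. Without the X-linked members the sum in neuroblasts was 1.69-fold higher (1.64 to 1.76).

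RefSeq promoters on GRCm38.p6, 250 bases before to 50 bases after the start of transcription, matched 9 of the 12 non-clustered members. The 3 shown are those of Pcdh17 and Pcdh19, which were the autosomal and the X-linked member with the largest differences in neuroblasts, and of Pcdh10, which was level. Each is read 5' to 3' on the gene's strand, and capitals mark CGCT on either strand (CGCT or AGCG), the core of the element shared by most clustered protocadherin promoters.
Pcdh17: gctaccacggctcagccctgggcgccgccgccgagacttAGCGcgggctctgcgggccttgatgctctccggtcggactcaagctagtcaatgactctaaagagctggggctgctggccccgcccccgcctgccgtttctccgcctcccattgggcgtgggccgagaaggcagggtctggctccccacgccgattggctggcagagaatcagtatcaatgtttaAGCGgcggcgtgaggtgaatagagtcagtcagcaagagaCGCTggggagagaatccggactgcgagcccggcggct
Pcdh19: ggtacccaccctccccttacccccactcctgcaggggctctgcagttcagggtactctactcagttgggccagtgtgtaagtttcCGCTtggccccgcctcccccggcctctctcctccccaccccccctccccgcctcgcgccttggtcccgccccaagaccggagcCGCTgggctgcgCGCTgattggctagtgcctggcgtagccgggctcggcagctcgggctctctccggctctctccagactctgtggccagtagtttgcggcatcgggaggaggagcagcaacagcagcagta
Pcdh10: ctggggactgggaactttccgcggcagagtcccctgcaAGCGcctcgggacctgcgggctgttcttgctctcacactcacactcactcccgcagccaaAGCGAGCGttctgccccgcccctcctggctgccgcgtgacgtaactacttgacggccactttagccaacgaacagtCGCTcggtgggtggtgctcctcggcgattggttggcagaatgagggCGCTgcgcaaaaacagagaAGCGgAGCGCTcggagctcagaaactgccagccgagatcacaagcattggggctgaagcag
The Pcdh17 promoter lies at chr14:84443313-84443612 on the plus strand and holds 3 such matches and 26 CpG. The Pcdh19 promoter lies at chrX:133688944-133689243 on the minus strand, with 3 matches and 18 CpG. The Pcdh10 promoter lies at chr3:45378148-45378447 on the plus strand, with 8 matches and 24 CpG, some matches overlapping. Of all 32851 promoters of this length, 61.79% hold at least 1 match, and the median promoter has 7 CpG, so the matches are a description of these letters and no more. The upper quartile is 20 CpG, which Pcdh17 and Pcdh10 pass and Pcdh19 does not. The promoter of Pcdh20, which was also higher in neuroblasts, holds 1 match and 4 CpG.

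The X-linked members were also higher outside neuroblasts. Pcdh19 was higher in radial glia (109 and 319 UMIs, 3.18-fold, 2.55 to 3.99) and astrocytes (203 and 271, 2.34-fold, 1.95 to 2.83), 1.41-fold higher in pyramidal or mossy neurons (1.23 to 1.64) and level in endothelial cells (362 and 181, 1.07, 0.887 to 1.28). Pcdh11x was 2.38-fold higher in radial glia (1.77 to 3.22), 1.75-fold higher in astrocytes and 3.50-fold higher in intermediate progenitors. Both genes are X-linked and the libraries differ in sex, so genotype and sex cannot be told apart in these ratios. Pcdh9 was 0.503 in pyramidal or mossy neurons (163 and 241 UMIs, 0.411 to 0.617). Pcdh10, the member with most UMIs in radial glia, had 2394 and 2242 UMIs there and a ratio of 1.02 (0.960 to 1.08). Pcdh17 had 985 and 977 UMIs in radial glia (1.08, 0.985 to 1.18) and 1838 and 823 in astrocytes (0.786, 0.723 to 0.854). Control before Setdb1_cKO, the counts behind the other members with a difference were these. Pcdh7 had 326 and 435 UMIs in radial glia, 1023 and 453 in astrocytes, 23 and 26 in intermediate progenitors and 253 and 871 in pyramidal or mossy neurons. Pcdh8 had 61 and 76 UMIs in radial glia, 95 and 56 in astrocytes, 63 and 16 in intermediate progenitors and 92 and 269 in pyramidal or mossy neurons. Pcdh8, an activity-regulated member also called arcadlin, was lower in intermediate progenitors (0.429, 0.231 to 0.751). Pcdh18 had 99 and 77 UMIs in radial glia, 97 and 48 in astrocytes, 68 and 42 in intermediate progenitors and 4 and 10 in pyramidal or mossy neurons. Pcdh20 had 23 and 45 UMIs in radial glia, 65 and 48 in astrocytes, 9 and 5 in intermediate progenitors and 248 and 719 in pyramidal or mossy neurons. Pcdh20 was 2.12-fold higher in radial glia (1.26 to 3.68) and level in pyramidal or mossy neurons. Pcdh9 had 501 and 590 UMIs in radial glia, 613 and 360 in astrocytes and 41 and 31 in intermediate progenitors. Of the measured non-clustered members, 3 of 11 were higher and 1 lower in radial glia, 2 of 10 higher in astrocytes, 4 of 10 higher and 1 lower in intermediate progenitors, and 1 of 10 higher and 1 lower in pyramidal or mossy neurons, to be read against the shares of all genes given for each class above. Some of these intervals held 1: Pcdh1 (0.834 to 3.91) and Pcdh19 (0.810 to 3.52), both higher in intermediate progenitors, and Pcdh15 (0.278 to 1.32), lower in radial glia. The higher member in pyramidal or mossy neurons also had an interval that held 1.

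Detection per cell followed the sums. Each cell was thinned to 2000 UMIs so that depth was equal, and cells with fewer were left out (136 control and 66 Setdb1_cKO neuroblasts). At least 1 beta gene was then seen in 970 of 4639 control neuroblasts (20.9%, exact interval 19.7% to 22.1%) and in 1335 of 4790 Setdb1_cKO neuroblasts (27.9%, 26.6% to 29.2%). At least 2 beta genes were seen in 137 (2.95%) and 303 (6.33%) cells. In pyramidal or mossy neurons the share with a beta gene was 19.0% (12.6% to 27.0%) of 126 cells and 33.7% (28.7% to 39.0%) of 344 cells. In radial glia it was 8.14% (6.93% to 9.49%) and 5.45% (4.34% to 6.74%), a ratio of 0.670. Other settings brought the radial glia ratio closer to 1 or widened its interval to hold 1: it was 0.885 (0.723 to 1.08) without thinning, where the intervals of 20.4% and 18% of cells overlapped, 0.945 (0.573 to 1.55) thinned to 1000 UMIs, 0.820 with a looser and 0.846 with a stricter cell filter, 0.788 with doublets kept and 0.632 with a stricter gate. In astrocytes it was 8.06% and 6.59% and in intermediate progenitors 9.24% and 7.25%, with overlapping intervals in both. Without thinning, 42.3% and 57.8% of neuroblasts had a beta UMI, and the mean number of beta genes per cell was 0.593 and 1.14.

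Microglia gave the background: after thinning, 0.667% of 150 control cells (0.0169% to 3.66%) and 1.07% of 187 Setdb1_cKO cells (0.130% to 3.81%) had a beta UMI, at median depths of 5812 and 7230 UMIs before thinning. Unthinned, 2.96% and 6.54% of microglia had one. The non-clustered genes were seen in 26.4% and 41.7% of thinned neuroblasts, in 49.2% and 55.0% of radial glia and in 77.0% and 70.2% of astrocytes. Without thinning, the fullest neuroblast held 7 beta genes in control and 11 in Setdb1_cKO, and the fullest pyramidal or mossy neuron held 5 and 13. Cells with at least 5 beta genes, also without thinning, were 12 (0.251%) and 154 (3.17%) of neuroblasts and 2 (1.59%) and 94 (27.3%) of pyramidal or mossy neurons. At equal depth, thinned to 2000 UMIs, such cells were 0 and 2 of neuroblasts and 0 and 0 of pyramidal or mossy neurons. The fullest thinned neuroblast held 3 and 5 beta genes, and the fullest thinned pyramidal or mossy neuron held 2 and 3.

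**Figure D4:**
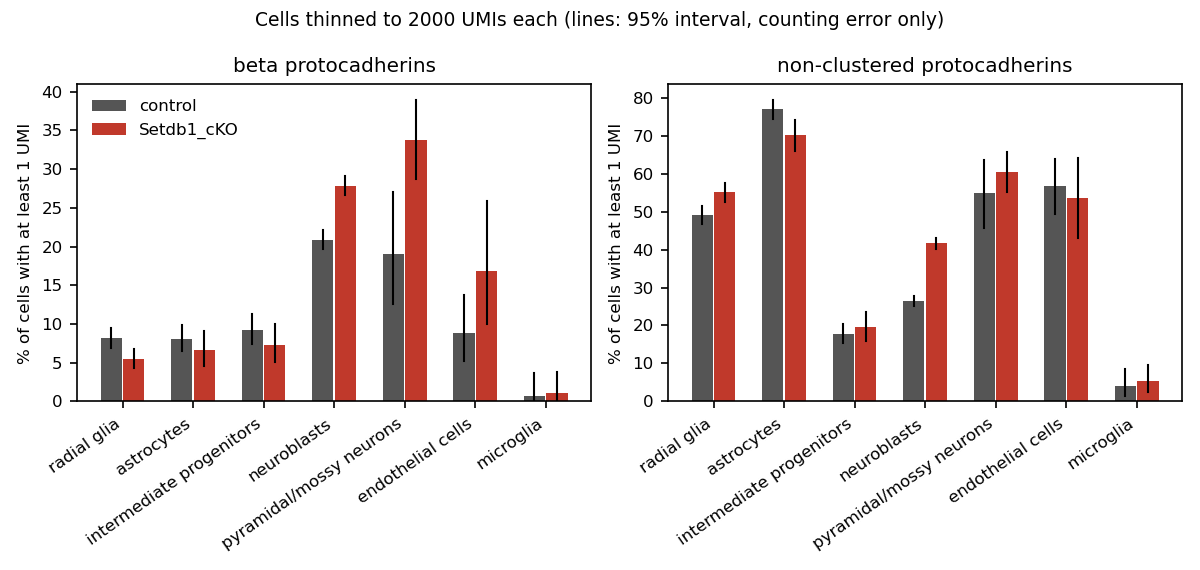
Share of cells with at least 1 UMI of the beta (left) or non-clustered (right) protocadherins after thinning each cell to 2000 UMIs, control grey and Setdb1_cKO red, with exact 95% intervals as lines. The beta share is 20.9% in control and 27.9% in Setdb1_cKO neuroblasts and 8.14% and 5.45% in radial glia, and microglia lie at 0.667% and 1.07%.

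How often beta UMIs of a cell came from the same gene was described by pairs of UMIs. Neuroblasts held a mean of 0.71 (control) and 1.42 (Setdb1_cKO) beta UMIs per cell without thinning. The number of beta genes a cell used can therefore not be read from them, and what gave same-gene pairs was not tested. For all pairs of UMIs from the same cell, the share that came from the same gene was set beside the share for pairs taken from different cells of the class and library. In control neuroblasts 747 of 2350 pairs within cells (31.8%) came from the same gene, against 7.84% between cells, a ratio of 4.05. In Setdb1_cKO neuroblasts it was 1712 of 10666 pairs (16.1%) against 7.18%, a ratio of 2.23. UMIs of 1 cell are not independent, so these shares carry no interval. Cells rich in beta UMIs weigh most in them. Among cells with exactly 2 beta UMIs each cell counts once, and there 172 of 504 control neuroblasts (34.1%, 30% to 38.4%) and 179 of 701 Setdb1_cKO neuroblasts (25.5%, 22.3% to 28.9%) had both UMIs from the same gene, with intervals that do not overlap.

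The same order was seen within neuroblast subsets and was less clear in other classes. Among Calb2-positive neuroblasts the ratio of within to between was 3.92 in control and 2.36 in Setdb1_cKO, and among neuroblasts with Bcl11b but no Calb2 UMI it was 4.71 and 1.99. In pyramidal or mossy neurons the pooled shares were 26.0% and 14.6%, but cells with exactly 2 beta UMIs gave 7 of 26 (26.9%, 11.6% to 47.8%) and 11 of 43 (25.6%, 13.5% to 41.2%). In radial glia the shares were 44.4% and 31.0%, from 144 and 100 pairs, and in intermediate progenitors they were level, with 33 of 110 and 26 of 87 pairs. In endothelial cells, where Setdb1 was not lower, the ratios were 1.98 and 2.33. Non-clustered genes in neuroblasts showed a smaller excess, 23.2% within against 12.2% between cells in control (1.90) and 21.6% against 14.2% in Setdb1_cKO (1.52), and cells with exactly 2 of their UMIs gave 26.6% and 27.2%.

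**Figure D5:**
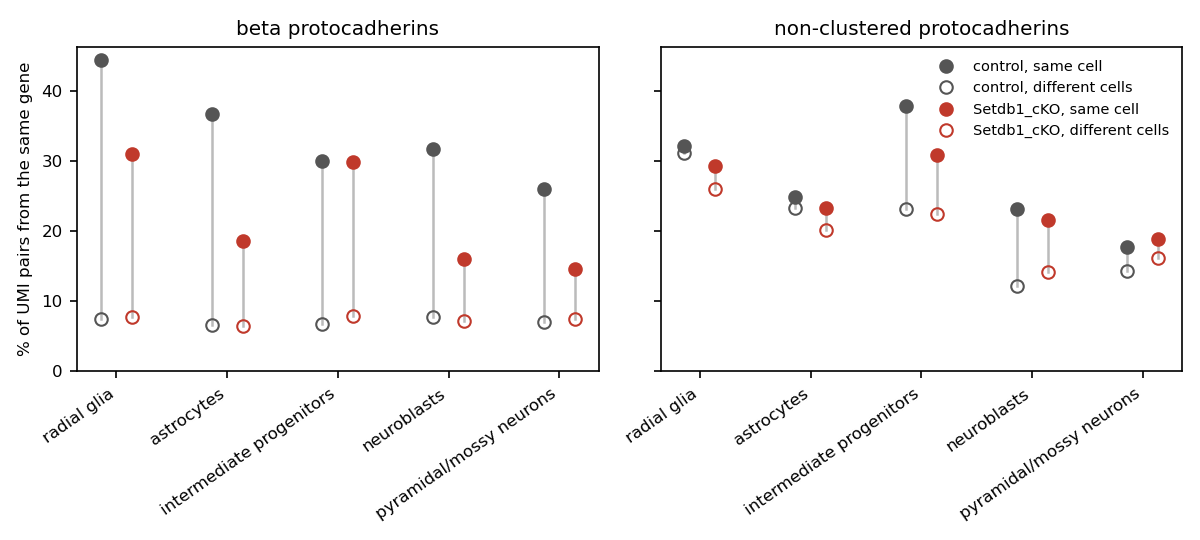
Share of UMI pairs that come from the same gene, for pairs within the same cell (filled) and in different cells (open), control grey and Setdb1_cKO red, for the beta (left) and non-clustered (right) protocadherins. Beta pairs in neuroblasts lie at 31.8% within cells in control and 16.1% in Setdb1_cKO, while the open points lie at 7.84% and 7.18%.

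Single members showed where same-gene pairs lay. In control neuroblasts 61.2% of the 932 beta UMIs that shared a cell with a Pcdhb7 UMI were Pcdhb7 themselves, and 26.5% of 1663 were in Setdb1_cKO. Pcdhb7 was seen in 7.69% and 7.68% of neuroblasts without thinning, at the deeper coverage of the Setdb1_cKO cells. For Pcdhb9 the shares were 52.6% of 369 and 17.8% of 877. For Pcdhb17, seen in 6.07% and 16.1% of neuroblasts, they were 22.4% of 492 and 23.4% of 3200, about level. Some shares were higher in Setdb1_cKO: Pcdhb20 (9.78% of 225 and 16.5% of 1880), Pcdhb2 (10.2% of 59 and 14.2% of 904) and Pcdhb3 (0% of 44 and 9.02% of 599). Pcdhb10 (4.76% of 42 and 9.09% of 264) and Pcdhb12 (5.71% of 35 and 7.01% of 314) were also higher. In every other member with UMIs in both libraries the share was lower in Setdb1_cKO. Pcdhb7 took 16.3% of the family's UMIs in control neuroblasts and 7.62% in Setdb1_cKO, and Pcdhb17 took 10.0% and 15.4%. The effective number of members, the inverse of the summed squared shares, was 12.7 and 13.9 over the class as a whole.

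Within neuroblasts the beta ratio differed with the subset. Calb2 marks immature granule neurons, and Calb2-positive neuroblasts (3930 and 3398 cells) had a beta ratio of 1.36 (1.30 to 1.43) and a non-clustered ratio of 1.80 (1.74 to 1.88). Neuroblasts with Bcl11b, a factor of maturing granule neurons, but no Calb2 UMI (292 and 887 cells) had a beta ratio of 1.90 (1.68 to 2.16) and a non-clustered ratio of 1.53 (1.38 to 1.70). In the first subset 11 of 21 measured beta members were higher and 3 lower, and in the second 11 of 18 were higher and 0 lower, against 8.26% and 7.78% of all genes that were higher and 6.42% and 7.39% that were lower. The second subset thus held more of the Setdb1_cKO than of the control neuroblasts, and the part of this in the class ratio was not tested. With more Setdb1_cKO cells in the second subset, a member could reach the minimum of UMIs there through that library alone. Each of the 11 members called higher there did so, with a control count under the minimum. Examples were Pcdhb6 (0 and 36 UMIs), Pcdhb12 (2 and 32) and Pcdhb17 (25 and 327), the last with the most control UMIs of the 11. Some members that were not called, such as Pcdhb9 (27 and 94), did so too. Pcdhb15, with 5 and 8 UMIs and a ratio of 0.404 (0.117 to 1.57), stayed under the minimum. The counts of 11 higher and 0 lower in the second subset carry this limit. Both subsets had beta ratios above 1. Pcdhb2 was 3.50-fold higher in the first and 5.94-fold higher in the second (4 and 94 UMIs), and Pcdhb7 was 0.627 and 0.965.

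The variable genes of the alpha and gamma arrays, which flank the beta genes, were also higher in neuroblasts, and both were higher in radial glia and astrocytes too, where the beta sum was lower. The variable alpha genes had 5 and 50 UMIs in radial glia (10.9-fold, 4.36 to 34.9) and 0 and 19 in astrocytes. The summed variable alpha genes were 3.04-fold higher (2.70 to 3.44) and the variable gamma genes 3.53-fold higher (3.37 to 3.70) in neuroblasts, with 11 of 11 and 16 of 18 members called higher, against 9.55% of all genes. In radial glia, where the beta sum was 0.739, the gamma sum was 1.99-fold higher (1.84 to 2.15), and in astrocytes, where the beta sum was 0.623, it was 1.61-fold higher (1.45 to 1.79). The C-type genes, which many neurons share, were lower in neuroblasts as a sum (0.464, 0.419 to 0.514). Pcdhgc5, a member of that list, went against it, with 97 and 178 UMIs in neuroblasts (1.45-fold, 1.13 to 1.88), 76 and 142 in radial glia (2.03-fold), 47 and 57 in astrocytes (2.13-fold) and 1 and 21 in pyramidal or mossy neurons. Pcdhga12 was the variable gamma gene of highest mean level among those higher in all 5 classes, with 296 and 1554 UMIs in neuroblasts (4.16-fold). Shared 3' sequence was checked only for the beta and non-clustered members. How surely UMIs were assigned to single alpha, gamma or C-type genes was not tested.

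Of 11 other genes annotated within 250 kb of the beta array, 3 differed at least 2-fold the same way in 4 or 5 of the 5 classes, as did 0.542% of the 23442 genes with a UMI. 3222401L13Rik, a long noncoding RNA after the array, had 202 UMIs in control and 6190 in Setdb1_cKO neuroblasts (24.3-fold, 21.1 to 28.0) and 121 and 1011 in radial glia (9.07-fold, 7.51 to 11.0). Gm26672 was 3.76-fold higher in neuroblasts, and Gm10544, before the beta array on the opposite strand, was lower (232 and 137 UMIs, 0.467, 0.376 to 0.580). Among 20 regulators of the arrays, all measured in neuroblasts, 1 was called higher and 2 lower, shares near the 9.55% and 7.33% of all genes. Atf7ip, a partner that stabilises SETDB1, was the higher one (3224 and 10612 UMIs, 2.61-fold, 2.5 to 2.71), and Setdb1 and Mau2, a cohesin loader subunit (2311 and 1933 UMIs, 0.662), were the lower ones. The other 17 lay within 1.5-fold. Mau2 was named after its value was seen.

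Over the log2 ratios of the 5 classes, the 5 genes nearest to the beta sum among 9735 candidates were Slc7a1, Katnal2, Sdf2l1, Lynx1 and Mthfd2, at Euclidean distances of 0.51 to 0.73. All 5 were lower in radial glia and astrocytes and higher in pyramidal or mossy neurons, and Slc7a1, a transporter of basic amino acids, had log2 ratios of -0.35, -0.71, 0.20, 0.31 and 1.01 in radial glia, astrocytes, intermediate progenitors, neuroblasts and pyramidal or mossy neurons. The measure describes these libraries and carries no test.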

How the data were processed

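Single-cell suspensions of postnatal day 5 dentate gyrus were profiled with the 10x Genomics 3' chemistry, 1 library per genotype. The deposited matrices hold raw UMI counts per gene and barcode that the authors made with Cell Ranger 7.1.0 on the mm10 build; Seurat is named as well, both per the submitters' processing notes. The sources used here do not say how introns were counted. Cells needed 1000 or more UMIs, 500 or more genes and no more than 10% mitochondrial UMIs, after removal of doublets called by Scrublet in scanpy 1.11.5 with an expected 8% (780 of 13289 control and 678 of 11430 Setdb1_cKO barcodes scored).

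Each cell took the class, of 16, with the highest mean scaled marker level, with at least 3 of its markers detected. Cells led by a neuronal class other than Cajal-Retzius were then split by at least 3 markers of GABAergic, pyramidal or mossy, granule neurons or neuroblasts, and pyramidal or mossy neurons also needed at least 2 Neurod6 UMIs and more of them than Prox1 UMIs. These thresholds were set after the data had been seen. No class was reached by 374 control and 285 Setdb1_cKO cells. UMIs were summed per class and library and scaled to CPM of the class total. Intervals of 95% were exact, conditional Poisson for ratios and Clopper-Pearson for shares. These cover counting error only, not the spread between animals. Calls used a pseudocount of 0.5 UMI, and with 1 library a group no test was possible. Sums and intervals were tested on simulated data.

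The members and lists were chosen with earlier results of these data known. Values are given for members at least 1.5-fold apart with an interval that left out 1 in at least 1 class. Other genes were named from fixed lists where at least 2-fold apart in most classes, or as the 5 nearest in pattern. Alternatives were other cell filters, doublets kept, joint clustering, a stricter gate, median-of-ratios scaling, other thinning depths, other minimums and members left out. Protein sequences and beta promoters were not used here.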

Additional observations from a re-analysis of the deposited data

Results flagged for a closer look

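Several ratios of Setdb1_cKO to control lay on opposite sides of 1 in different cell classes, with intervals that left out 1 in both, and none of these differences between classes was tested. The summed beta protocadherins were 2.19 among pyramidal or mossy neurons and 0.623 in astrocytes. For Pcdhb19 the ratio was 2.51 among pyramidal or mossy neurons and 0.355 in intermediate progenitors. For Pcdhb20 it was 4.57 among pyramidal or mossy neurons and 0.314 in astrocytes. Pcdhb21, which overlaps Pcdhb22 on the same strand, was 1.54 in neuroblasts and 0.147 in intermediate progenitors, the latter from 23 and 2 UMIs. Among the non-clustered members, Pcdh9 was 2.75 in neuroblasts and 0.503 in pyramidal or mossy neurons.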

How the results depend on the processing

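Over 22 results and 216 alternatives, 174 values stayed within the counting interval of the value reported (counts within 1.5 times), 42 moved beyond it and 0 met the rule for a reversal. Only ratios reported at least 1.5-fold from 1 could meet that rule, so counts and ratios nearer 1 could not. The cause of each move was not tested unless the setting itself gives it. The beta sum in neuroblasts was 1.68 with joint clustering, 1.68 with median-of-ratios scaling, 1.49 thinned to 2000 UMIs, 1.51 without Pcdhb17, 1.36 in Calb2-positive and 1.90 in Bcl11b-positive, Calb2-negative neuroblasts. In astrocytes it was 0.775 thinned. The non-clustered sum in neuroblasts was 1.68 with doublets kept, 1.93 with joint clustering, 1.92 with median-of-ratios scaling, 1.61 without Pcdh17, 1.69 without X-linked members and 1.53 in Bcl11b-positive, Calb2-negative neuroblasts. In radial glia it was 1.28 with joint clustering, 1.2 with median-of-ratios scaling, 1.29 without Pcdh10 and 1.08 without X-linked members. In astrocytes it was 0.852 with a stricter cell filter, 0.856 with a stricter gate, 0.844 thinned and 0.846 without X-linked members. In pyramidal or mossy neurons it was 1.16 with a stricter gate, 1.19 with median-of-ratios scaling, 0.992 without Pcdh19 and 0.987 without X-linked members. The ratio of neuroblast shares with a beta UMI was 1.53 thinned to 1000 UMIs.

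Counts of members moved by over 1.5 times as follows. Of beta members called lower in radial glia (5 in the report), 3 were called with a stricter cell filter, 1 thinned and 1 with a minimum of 100 UMIs. In astrocytes (4 in the report) it was 0 with a stricter cell filter, 0 with a stricter gate, 0 thinned, 9 with a minimum of 10 UMIs and 0 with a minimum of 100 UMIs. Of the 12 called higher in pyramidal or mossy neurons, 0 were called thinned and 5 with a minimum of 100 UMIs. Thinning and higher minimums leave fewer members to measure. At a minimum of 100 UMIs no beta member was measured in astrocytes, and only Pcdhb7 in radial glia. In neuroblasts the count was 10 to 12 under all 11 alternatives.

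The ratio of same-gene shares of beta pairs, added after seeing the data, was 0.505 in neuroblasts, and 0.636 with cells weighted equally, 0.748 in cells with exactly 2 beta UMIs and 0.387 in Bcl11b-positive, Calb2-negative neuroblasts. In pyramidal or mossy neurons it was 0.560, and 0.778, 0.95 and, with a stricter gate, 0.740. Of the sums, those of the beta genes in intermediate progenitors (0.780 to 1.04) and of the non-clustered genes in pyramidal or mossy neurons had alternatives on both sides of 1. So did the ratio of intermediate progenitor shares with a beta UMI (0.785, alternatives 0.540 to 1.24). No paired analysis was possible because each genotype had 1 library, and no replicate could be left out.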
